A study of Homo sapiens with 4 samples.

Results

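MicroRNA host genes are the long noncoding genes whose transcripts carry microRNA hairpins and whose symbols are built from MIR, the number of a microRNA (or LET7 and a letter) and HG. The sites described here are those whose gene identifier has such a symbol in GENCODE release 29, on either strand and of any mutation type. They were 277 of 166248 sites in PARP1 IP 1 and 462 of 229782 sites in PARP1 IP 2, and they fell in 41 of the 62 annotated host genes. The sites came from RNA sequenced after immunoprecipitation of PARP1, an enzyme that adds ADP-ribose chains to proteins when DNA breaks. The cells were HK-2, an immortalised human line from proximal tubule epithelium. The study holds 2 PARP1 IPs, made with a Flag antibody, and 2 inputs of the same cells. No control IP is described, and the inputs were not analysed here. The labels describe the cells by line alone and give no treatment beyond the IP steps.

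A host gene is transcribed as a long primary RNA. In the nucleus, DROSHA and DGCR8 cut the hairpin out of it, either from an exon or from an intron, and XPO5 carries the hairpin to the cytoplasm, where DICER1 trims it to the mature microRNA that AGO proteins hold. Bases 2 to 8 of the mature microRNA, the seed, pair with target messages. The rest of the host transcript is spliced or degraded, and several host genes also give stable long noncoding RNAs.

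Mature microRNAs are given for some of the host genes with listed sites, so that hosts whose products share a seed can be seen together. The choice does not follow site counts alone. MIR4500HG, with 3 and 5 sense sites, is included for comparison of seeds, and MIR646HG, with 4 and 13, is not. The sequences are those of RefSeq on GRCh38.p14, written 5′ to 3′, and the capitals mark the seed.
miR-3681-3p, from MIR3681HG: aCACAGUGcuucauccacuacu
miR-4435, from MIR4435-2HG: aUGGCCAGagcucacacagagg
miR-181a-5p, from MIR181A1HG and MIR181A2HG: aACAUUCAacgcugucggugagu
miR-181b-5p, from MIR181A1HG: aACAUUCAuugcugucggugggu
let-7a-5p, from MIRLET7BHG: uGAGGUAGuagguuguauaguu
let-7b-5p, from MIRLET7BHG: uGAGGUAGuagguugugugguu
let-7c-5p, from MIR99AHG: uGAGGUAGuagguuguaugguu
miR-4500, from MIR4500HG: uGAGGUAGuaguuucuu
miR-221-3p, from MIR222HG: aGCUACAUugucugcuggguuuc
miR-222-3p, from MIR222HG: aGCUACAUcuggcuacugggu
miR-29b-3p, from MIR29B2CHG: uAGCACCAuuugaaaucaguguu
miR-29c-3p, from MIR29B2CHG: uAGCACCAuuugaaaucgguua
miR-31-5p, from MIR31HG: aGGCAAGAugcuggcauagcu

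The let-7 seed GAGGUAG occurs in the products of 3 host genes with sites in both IPs, MIRLET7BHG, MIR99AHG and MIR4500HG. It also occurs in let-7a-5p from MIR100HG, which was named in neither list. The miR-181 seed ACAUUCA occurs in the products of MIR181A1HG and MIR181A2HG. The microRNA of MIR3681HG shares the seed CACAGUG with miR-216a-3p of MIR217HG.

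The authors listed single bases (GRCh38) by strand, each with a count of overlapping tags, a count of those tags that were mutated there, and a false discovery rate (FDR). A site is therefore a mutated base and not a binding interval. A sense site lies on the strand of its gene as listed. No source used here says whether the libraries keep strand. The only depth in the lists is that of tags at the sites themselves. In the host genes these summed to 749 in IP 1 and 1222 in IP 2, with a median of 2 tags a site and a highest value of 13 in each list. The labels do not say that the IPs are separate cultures. The 95% intervals below are exact (Clopper-Pearson) and cover counting error only, since amplified tags without molecular identifiers are not independent molecules. With 1 list an IP and no input list, no test between groups could be made, and sites are not replicates.

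Host genes held 0.167% of all sites in IP 1 (95% interval 0.148 to 0.187) and 0.201% in IP 2 (0.183 to 0.220). Of the 62 host genes, 34 were named in IP 1 and 36 in IP 2. Both IPs named 29 of them, or 46.8%, against 13.1% of 16054 long noncoding genes and 9.44% of 22092 noncoding genes of any length in the same annotation. The corresponding share was 20.7% for 1886 genes with a LINC symbol, 44.0% for the 25 small nucleolar RNA host genes of the SNHG series and 55.4% for protein-coding genes. A sense site was listed in both IPs for 24 host genes. The other 12 named genes were listed in IP 1 alone in 5 cases and in IP 2 alone in 7, and 21 host genes had no site.

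Host genes were longer than other long noncoding genes, with a median span of 32.4 kb against 4.50 kb. Span went with being listed. The median span was 77.6 kb for host genes named in both IPs, 20.6 kb for those named in 1 IP and 6.38 kb for those named in neither. When other long noncoding genes were weighted to the host genes' distribution over 10 bins of span, 29.7% of them were named in both IPs, which would be 18.4 of 62 genes where 29 were seen. In the bin of longest genes (median 124 kb) 15 of 23 host genes were named in both IPs, against 58.4% of the other genes. In the next bin (median 39.1 kb) 7 of 9 were, against 31.3%. Spans were matched by bin only, and the bin of longest genes runs from 62404 to 1375317 bases, so span may still differ within it. Transcript level in these cells was not available for either class, and its part in the difference was not tested.

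**Figure D1:**
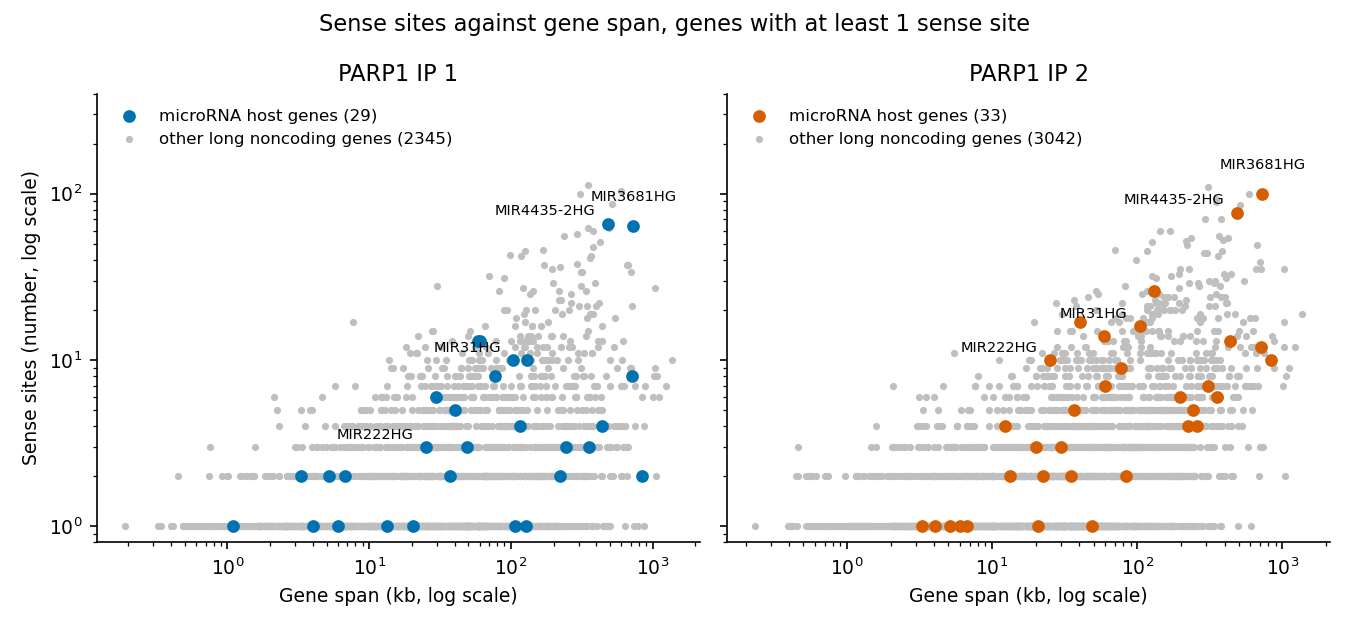
Sense sites per gene (log axis) against gene span in kb (log axis) for genes with at least 1 sense site, IP 1 on the left and IP 2 on the right; coloured points are microRNA host genes (29 in IP 1 and 33 in IP 2) and grey points other long noncoding genes (2345 and 3042). Counts rise with span in both classes, and MIR3681HG and MIR4435-2HG lie among the highest points of each panel.

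The sites were unevenly spread over the host genes. MIR3681HG and MIR4435-2HG together held 130 of 242 sense sites in IP 1 (53.7%) and 176 of 372 in IP 2 (47.3%). At the other end, 13 host genes in IP 1 and 11 in IP 2 had only 1 or 2 sense sites. Across the 62 genes the sense counts of the IPs had a Spearman correlation of 0.704, given as a description because the genes of a list share its library. Sense counts were higher in IP 2 for 25 genes, higher in IP 1 for 11 and equal above 0 for 2. IP 2 listed 1.54 times as many host sense sites as IP 1, and 1.38 times as many sites of all genes.

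**Figure D2:**
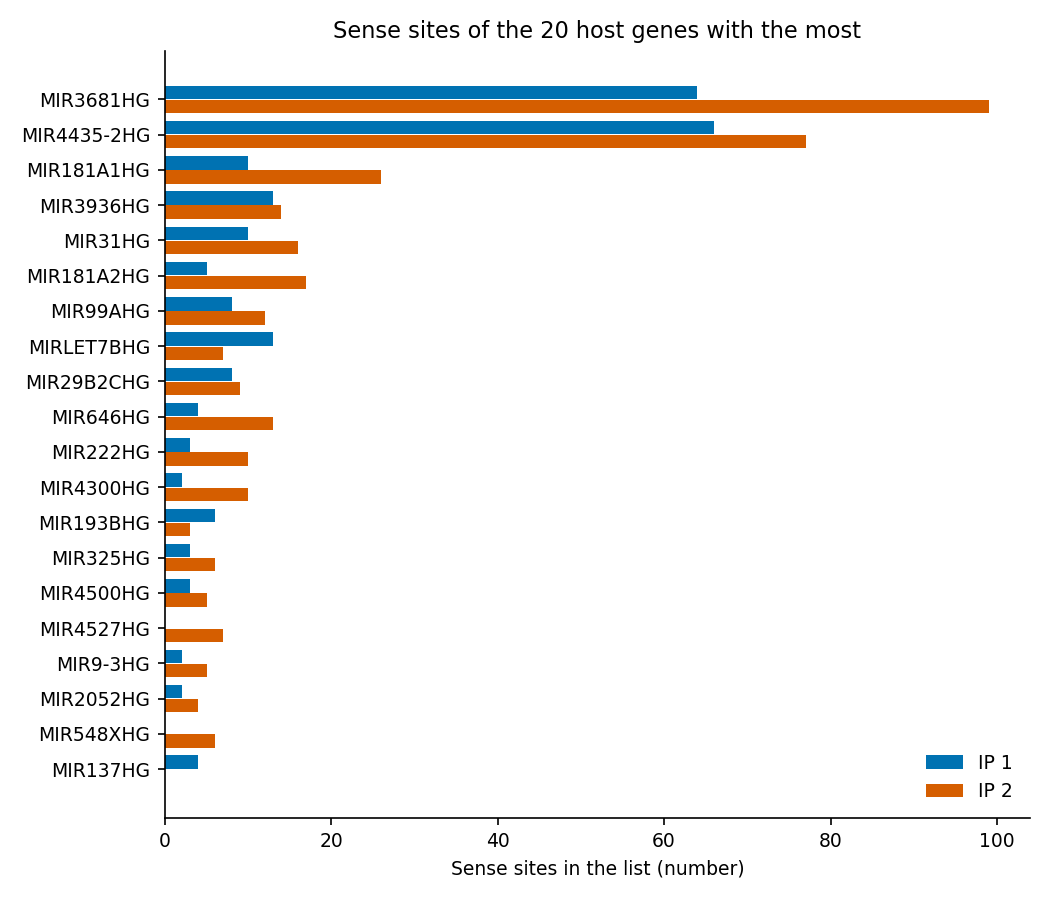
Number of sense sites in each IP (horizontal axis) for the 20 host genes with the most, with IP 1 in blue and IP 2 in orange. MIR3681HG (64 and 99 sites) and MIR4435-2HG (66 and 77) stand above the rest, none of which passes 26 in either IP.

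MIR3681HG (ENSG00000224184, chromosome 2, 11848622 to 12578348, plus strand) spans 730 kb, and its sense sites numbered 64 in IP 1 and 99 in IP 2. It led the host genes in IP 2 and in the sum, and MIR4435-2HG led in IP 1. They made up 53 separate places in IP 1 and 76 in IP 2, counting sites within 50 bases of each other as 1 place. That is 0.877 and 1.36 sense sites per 10 kb, above 94.6% and 95.3% of long noncoding genes of the same span bin. All were intronic. Substitutions were 44 of the 64 sites and 61 of the 99, and deletions 14 and 34. The gene also had 3 antisense sites in IP 1 and 19 in IP 2. Its sense sites began 218 kb into the GENCODE span in IP 1 and 167 kb in IP 2, so that the first stretch of the gene had no sense site of MIR3681HG in either list. RefSeq places the start of MIR3681HG at position 12007116, 158 kb into the GENCODE span. Upstream of that start, 0 sense-strand sites of any gene were listed in IP 1 and 3 in IP 2.

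Of the 9 host sites listed at the same base and strand in both IPs, 3 lay in one 9-base stretch of MIR3681HG, a substitution at 12202262 and deletions at 12202269 and 12202270. At each of them 2 of 2 tags were mutated in IP 1 and 2 of 2 in IP 2. This stretch lies about 3 kb downstream of the MIR3681 hairpin (12199130 to 12199201). The 3 positions are adjacent and may stand for the same tags, so they are not independent observations.

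MIR4435-2HG (ENSG00000172965, chromosome 2, 111036776 to 111523376, minus strand) gives a long noncoding RNA that is also known for a role in myeloid cell survival, and its span of 487 kb overlaps BCL2L11, ACOXL and other genes on the opposite strand. Its sense sites numbered 66 in IP 1 and 77 in IP 2, in 49 and 63 separate places. Their density, 1.36 and 1.58 sites per 10 kb, lay above 97.9% and 97.1% of long noncoding genes of the same span bin. The median span of that bin was 124 kb. As the tags of opposite genes are told apart only by the listed strand, these counts depend on it. Deletions were 29 of the 66 sites and 29 of the 77. Sense sites ran from 28.4 kb to 320 kb in IP 1 and from 29.8 kb to 324 kb in IP 2 along the 487 kb. The RefSeq start, at 111495161, lies 28.2 kb into the GENCODE span, and the first site was 0.202 kb beyond it in IP 1 and 1.62 kb beyond it in IP 2. No sense-strand site of any gene was listed before that start in either IP. After the last host site, the remaining span held 8 sense-strand sites in IP 1 and 8 in IP 2, which the lists gave to other genes or to none.

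MIR4435-2HG had 3 bases in common between the IPs. At 111474142, the strongest by tags, 3 of 3 tags were mutated in IP 1 and 3 of 4 in IP 2, both substitutions. At 111206013 a substitution had 2 of 2 tags in each IP, and at 111484040 an insertion had 2 of 3 tags in IP 1 and 2 of 2 in IP 2. CYTOR, a near-identical copy of part of this gene elsewhere on chromosome 2, had 17 and 20 sense sites and no base in common. How tags that match both copies were assigned is not given, so the split of counts between them is uncertain.

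**Figure D3:**
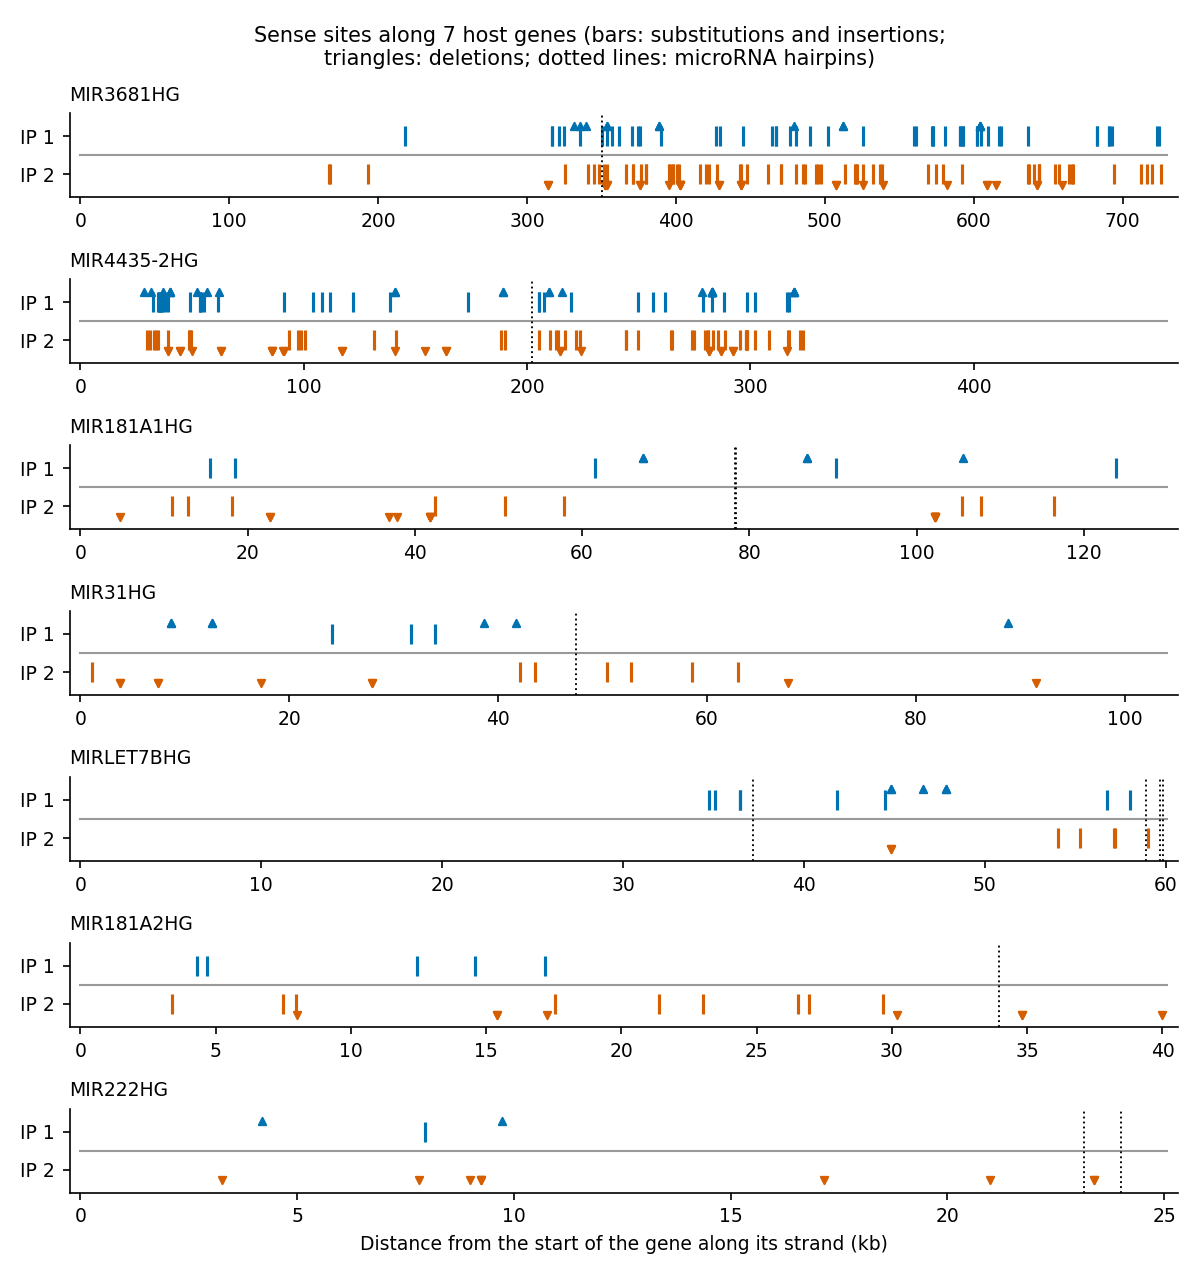
Sense sites along 7 host genes, in kb from the GENCODE start along the gene's strand, IP 1 above and IP 2 below each line; bars are substitutions and insertions, triangles deletions and dotted lines microRNA hairpins. Sites of MIR3681HG begin at 167 kb, those of MIR4435-2HG end by 324 kb of 487 kb, and those of MIRLET7BHG begin at 34.8 kb of 60.1 kb.

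MIRLET7BHG (ENSG00000197182, chromosome 22, 46053869 to 46113928, plus strand) is the host of let-7a-3 and let-7b, members of a family that restrains growth-promoting messages. Its sense sites numbered 13 in IP 1 and 7 in IP 2, or 2.17 and 1.17 per 10 kb. The first lay 34.8 kb into its 60.1 kb span. The RefSeq start is 32.1 kb into that span. Before it, the lists held 3 sense-strand sites in IP 1 and 9 in IP 2, none of them given to MIRLET7BHG. The gene had the best covered pair of shared bases, adjacent deletions at 46098650 and 46098651. At 46098650, 2 of 7 tags were mutated in IP 1 and 4 of 10 in IP 2, and at 46098651, 2 of 6 and 4 of 10. The unmutated tags at these bases were therefore the majority in both IPs.

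MIRLET7BHG also held 5 of the 24 exonic host sites, more than any other host gene, and all 5 were substitutions. They are given with 14 bases on each side, from GENCODE transcripts, because they lie within 5 kb of the let-7a-3 hairpin at the end of the gene. Only 1 in each IP lay within 1 kb of it. The capital marks the listed base as the reference has it.
46110617, IP 1, 3 of 3 tags mutated: gcctgagtcagcctCagctcagaggagct
46110992, IP 2, 3 of 4 tags mutated: gggcggcaccaggtGtgagcctcagcggt
46111049, IP 2, 4 of 4 tags mutated: gctccagtgcccctCgggagggagtagga
46111898, IP 1, 2 of 2 tags mutated: ggaggcccgtctctCgccacgttcccctg
46112885, IP 2, 4 of 4 tags mutated: gggagcgggcagggCcaggtttgggggca

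The listed base was C at 4 of the 5 exonic sites and G at the other. The last of them, at 46112885, lay 63 bases beyond the hairpin of let-7a-3. This was the closest approach of any listed sense site to one of the RefSeq hairpins at hand. None of the 5 was listed in both IPs.

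MIR646HG (chromosome 20, plus strand) was the remaining gene with a shared base, a substitution at 60211900 on the opposite strand with 2 of 2 tags in each IP. It had 4 sense and 4 antisense sites in IP 1, and 13 sense and 8 antisense sites in IP 2. Shared bases were thus 9 of 277 host sites in IP 1 (3.25%, 1.50 to 6.08), against 4.17% of all sites of that list. In IP 2 they were 9 of 462 (1.95%, 0.895 to 3.67), against 3.02% of all sites. For other long noncoding genes the shares were 3.32% and 2.16%. The host gene shares thus lay slightly below those of all sites, with intervals that include them. In all, 4 of 62 host genes had a shared base, against 1.54% of long noncoding genes. This comparison was not weighted by span, and host genes are the longer class. MIR646HG counts only by its antisense site.

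The miR-181 hosts gave more sites in IP 2. MIR181A1HG (chromosome 1, 130 kb) gave 10 sense sites in IP 1 and 26 in IP 2, while MIR181A2HG (chromosome 9, 40.2 kb) carried 5 and 17. Deletions were 5 of the 10 and 17 of the 26 in MIR181A1HG, and 0 of the 5 and 8 of the 17 in MIR181A2HG. Many of these deletions were runs of adjacent bases. Positions 198835250 to 198835257 of MIR181A1HG were listed as 8 single-base deletions in IP 2, each with 2 mutated tags of 3 or 4. In separate places, MIR181A1HG had 8 in IP 1 and 15 in IP 2. With 1.25 and 4.23 sense sites per 10 kb, MIR181A2HG had the highest summed density among host genes with at least 3 sense sites in each IP. Its density lay above 94.4% and 99.3% of long noncoding genes of its span bin.

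MIR222HG (chromosome X, 45745211 to 45770274, minus strand) is the host of miR-221 and miR-222, which target the cell cycle inhibitor CDKN1B. Its sense sites numbered 3 in IP 1 and 10 in IP 2, in 3 and 7 separate places. None of the 13 was a substitution, since IP 1 had 2 deletions and 1 insertion and IP 2 had 10 deletions. The gene also held the deepest sites of the set. In IP 1 the deletions at 45760559 and 45766078 had 2 mutated of 13 tags each. In IP 2 the deletion at 45762454 had 2 of 13 tags, that at 45767012 had 2 of 11 and that at 45753127 had 2 of 10. These 5 sites, with low mutated shares, made up 5 of the 7 host sites with 10 or more tags, and the other 2 were the shared MIRLET7BHG deletions in IP 2. None of the MIR222HG sites was listed in both IPs.

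MIR31HG (chromosome 9, 21455642 to 21559669, minus strand), host of miR-31 and neighbour of the CDKN2A locus, gave 10 sense sites in IP 1 and 16 in IP 2. Deletions were 7 of the 10 and 9 of the 16. The site with the most mutated tags in any host gene was its substitution at 21528006 in IP 1, with 8 of 8 tags mutated, and that base was not listed in IP 2. MIR222HG, MIR181A1HG and MIR31HG together had deletions at 60.9% of their sense sites in IP 1 and 69.2% in IP 2. They were grouped after their values were seen.

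MIR29B2CHG (chromosome 1, 77.6 kb) is the host of miR-29b and miR-29c, which are known to target collagen and other matrix messages. Its sense sites numbered 8 in IP 1 and 9 in IP 2, or 1.03 and 1.16 per 10 kb, with no base in common. In IP 1, 3 of the 8 sites were exonic, and in IP 2 none was. The exonic sites are given with 14 bases on each side, the listed base in capitals, since they include a deletion within a run of 1 base. Each had 2 of 2 tags mutated.
207805335, substitution: tcctctctttacacAtgaagacactgagg
207814225, deletion: atctggcactttttTcttgacctttgaat
207815258, substitution: cacttgctgccgatCacagtaatagcaat

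The deletion at 207814225 fell in a run of 6 T. Over all exonic host sites, 3 of 7 deletions and insertions lay in a run of 4 or more identical bases, the longest of 8, and 0 of 17 substitutions did. The run of 8 was at an insertion in MIR4435-2HG at 111239888, listed in IP 2.
Insertion at 111239888: agacctctttttttTcccactgtaccaca

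MIR3936HG (chromosome 5, 58.6 kb) lies opposite SLC22A4 and SLC22A5, which encode carnitine and organic cation transporters of the tubule. Its sense sites numbered 13 in IP 1 and 14 in IP 2, with 12 substitutions in each, and 1 and 9 antisense sites. Since the tags of opposite genes are separated only by the listed strand, this count depends on the libraries keeping it. MIR193BHG (chromosome 16, 29.7 kb), host of miR-193b and miR-365a, gave 6 sense sites in IP 1 and 3 in IP 2, or 2.02 and 1.01 per 10 kb. Of the 6, 2 were exonic substitutions near its start, at 14302424 and 14302545. MIR99AHG, host of miR-99a and let-7c, had 8 and 12 sense sites over 717 kb. At 0.112 and 0.167 per 10 kb it stood above 63.8% and 61.0% of long noncoding genes of its span bin. MIR4300HG carried 2 and 10 sense sites, MIR325HG 3 and 6, and MIR4500HG 3 and 5. For the 24 host genes with sense sites in both IPs, the median percentile of density was 94.4 in IP 1 and 93.3 in IP 2. Having a site in both lists is part of how these 24 were taken, so the percentile is a description.

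Several well-known host genes, most of them short, gave few sites or none. MIR17HG, the host of the growth-promoting miR-17 cluster, gave 2 sense sites in IP 1 and 1 in IP 2 over 6.76 kb. Its substitution at 91349218 had 4 of 4 tags mutated in IP 1. MIR155HG, known from immune cells, had 1 and 2 sense sites, MIR503HG had 2 and 1, and MIR205HG, host of the epithelial miR-205, had 1 and 1. MIR22HG, MIR194-2HG (host of miR-194 and miR-192, which are abundant in kidney), MIR200CHG (host of the epithelial miR-200c) and MIR210HG (host of the hypoxia-induced miR-210) were named in neither list, and nor was MIR100HG, which spans 528 kb. For short genes a count of 0 says little, since the absence of a mutated base is not the absence of the RNA. MIR34AHG, host of the p53-induced miR-34a, was given only 2 antisense sites, in IP 2. Its GENCODE span nevertheless held 15 sense-strand sites in IP 1 and 20 in IP 2 that the lists did not give to it. The span of MIR100HG, with no site of its own in the lists, likewise held 1 and 14. Over all host genes, 288 sense-strand sites in IP 1 and 465 in IP 2 lay inside the spans, of which 12 and 20 were given to another gene.

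The place of sites within host genes was mainly intronic, as was most of the sequence. Introns held 230 of 277 sites in IP 1 (83.0%) and 360 of 462 in IP 2 (77.9%), and exons held 12 in each IP (4.33% and 2.60%). Per megabase, host exons had 51.8 sites in each IP, and host introns 32.9 in IP 1 and 51.6 in IP 2. The ratio of exon to intron density was therefore 1.57 in IP 1 and 1.005 in IP 2. In other long noncoding genes the ratios were 1.44 and 1.30. Without MIR3681HG and MIR4435-2HG the host gene ratios were 2.93 and 1.45, from 11 exonic sites in IP 1 and 10 in IP 2. Sense sites per megabase of span were 33.6 and 51.6 in host genes and 19.6 and 28.0 in other long noncoding genes. Without MIR3681HG and MIR4435-2HG, the host gene densities were 18.7 in IP 1 and 32.7 in IP 2, so the higher density in IP 1 rested on those genes. Leaving out the host genes with the most sense sites lowers the density by construction. Other long noncoding genes kept their own genes with the most sites, here and wherever these host genes are left out below, so such comparisons are uneven.

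Antisense sites were 35 of 277 in IP 1 (12.6%, 8.96 to 17.1) and 90 of 462 in IP 2 (19.5%, 16.0 to 23.4). The antisense share in other long noncoding genes was 23.0% and 28.3%, and among all sites it was 9.71% and 12.3%. Without MIR3681HG and MIR4435-2HG the host gene share was 21.1% (14.7 to 28.8) and 24.3% (19.2 to 30.0), whose intervals include the values of other long noncoding genes. Leaving out genes for their many sense sites favours a higher antisense share in the rest.

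Deletions were 74 of 242 host sense sites in IP 1 (30.6%, 24.8 to 36.8) and 131 of 372 in IP 2 (35.2%, 30.4 to 40.3). The share in other long noncoding genes was 19.8% and 18.9%, below both intervals, and among all sense sites it was 22.5% and 22.0%. SNHG genes had 31.1% (18.2 to 46.7) of 45 sense sites in IP 1 and 41.0% (28.6 to 54.3) of 61 in IP 2. Their IP 1 interval included the shares of other long noncoding genes and of all sense sites. Without MIR3681HG and MIR4435-2HG the host gene share was 27.7% (19.6 to 36.9) and 34.7% (28.1 to 41.8), so that the IP 1 interval then included the shares of other long noncoding genes and of all sense sites, and the IP 2 interval did not. These intervals treat sites as independent, which adjacent deletions are not, since 43 of 75 host deletions in IP 1 and 110 of 150 in IP 2 adjoined another deletion. Among all deletions the adjoining share was 61.5% and 63.0%, against 57.3% and 73.3% in host genes.

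Sites with 4 or more mutated tags were 15 of 277 in IP 1 (5.42%, 3.06 to 8.77) and 25 of 462 in IP 2 (5.41%, 3.53 to 7.89). In other long noncoding genes they were 2.76% and 2.93%, and among all sites 3.98% and 4.09%. Of the 39 such sense sites in both lists, 24 were in MIR3681HG or MIR4435-2HG and 33 were substitutions. Without those genes the shares were 3.52% (1.15 to 8.03) and 4.25% (2.14 to 7.47). Sites at the lowest support, 2 tags that were both mutated, were 75.5% of host sites in each IP, against 88.1% and 88.6% in other long noncoding genes and 82.7% and 83.3% of all sites. Without MIR3681HG and MIR4435-2HG they were 81.0% (73.6 to 87.1) and 78.0% (72.5 to 82.9) of host sites.

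**Figure D4:**
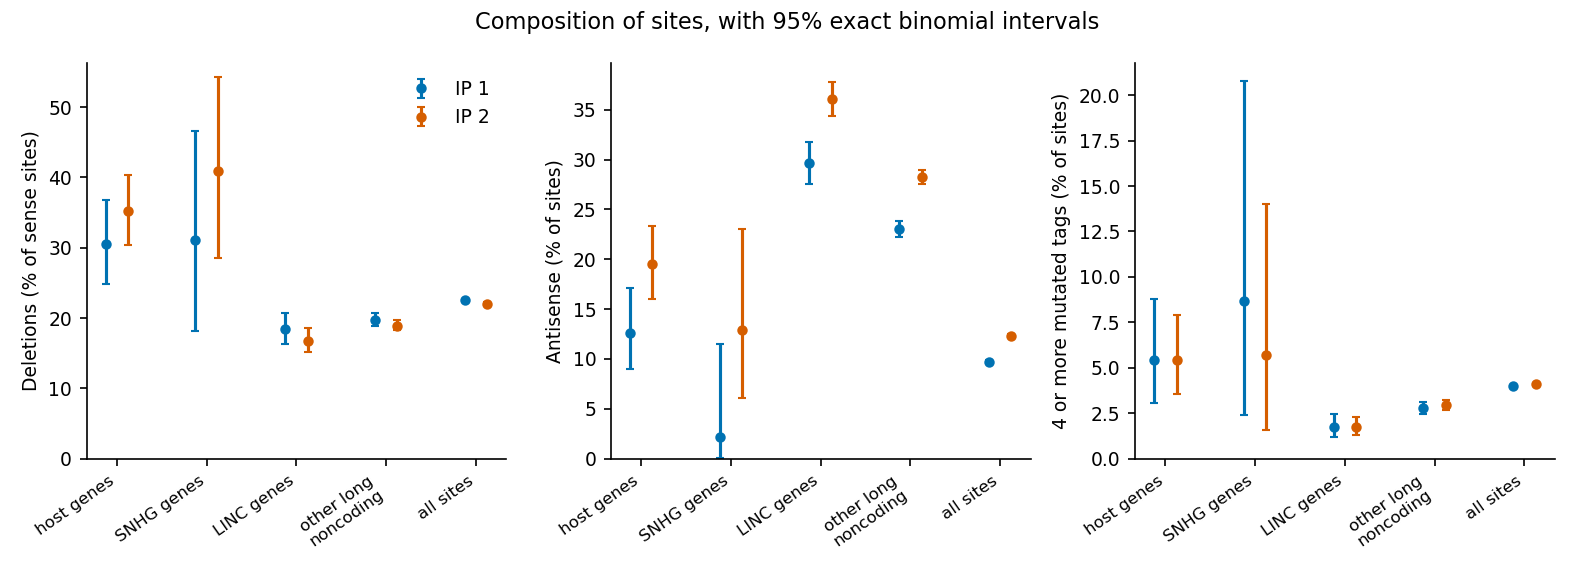
Share of deletions among sense sites, of antisense sites and of sites with 4 or more mutated tags (vertical axes, percent) for host genes, SNHG genes, LINC genes, other long noncoding genes and all sites; blue is IP 1, orange is IP 2 and bars are 95% exact binomial intervals. Host genes have deletion shares of 30.6% and 35.2%, against 19.8% and 18.9% in other long noncoding genes, and antisense shares of 12.6% and 19.5%, against 23.0% and 28.3%.

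The RefSeq hairpins at hand carried no listed sense site. They are 78 hairpins on the strand of 48 host genes, 29 of them over exons and 49 in introns. The set used gave no hairpin inside the other host genes, MIR155HG and MIR22HG among them, so their sites were not checked. Of the sense sites of the 48 genes, 0 of 225 in IP 1 and 0 of 338 in IP 2 fell inside a hairpin. This allows shares of up to 1.63% and 1.09%. Hairpins make up 0.108% of the bases of these genes, so an absence could not be told from an even spread at this depth. Within 1 kb of a hairpin there were 6 sites in IP 1 (2.67%, 0.985 to 5.71) and 7 in IP 2 (2.07%, 0.837 to 4.22), where 1.91% of the bases lie. Within 5 kb there were 31 (13.8%, 9.56 to 19.0) and 36 (10.7%, 7.57 to 14.4), where 6.89% of the bases lie. These shares of bases pool genes of unequal site density. With each gene's bases weighted by its own sense sites, the windows of 5 kb covered 10.9% in IP 1 and 8.24% in IP 2 and those of 1 kb 3.31% and 2.33%, all inside the intervals of the site shares. Genes that lie wholly within 5 kb of a hairpin, such as MIR17HG and MIR503HG, gave 8 of the 31 sites in IP 1 and 5 of the 36 in IP 2. A closeness of sites to hairpins was therefore not detectable at this depth.

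Single hairpins differed. Beside the let-7a-3 site at 63 bases, the nearest was 118 bases from MIR222 in IP 2, followed by 213 bases from MIR3681 in IP 1 and 429 bases from MIR92A1 of the miR-17 cluster in IP 1. MIR503 had its nearest site at 746 bases in IP 1 and 687 in IP 2. The hairpin of MIR4435-2 was 3187 and 3144 bases from a site, and that of MIR31 5748 and 2887 bases. For MIR181A1 the nearest sites lay 8530 and 20484 bases away. Along the genes, from start to end in 5 equal parts of the span, sense sites numbered 55, 31, 69, 51 and 35 in IP 1 and 65, 65, 100, 90 and 52 in IP 2. The middle part was the fullest in both, and the sites of MIR3681HG and MIR4435-2HG are included. A RefSeq promoter window (250 bases before to 50 after the start) was at hand for 47 host genes, and 1 site lay in one of them, that of MIR29B2CHG in IP 1.

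Genes of the microRNA pathway and other genes that carry microRNAs are given for context, from lists chosen with earlier results of these data known. Of 25 pathway genes, 20 were named in both IPs, 4 in 1 IP and 1, DDX5, in neither. Over the whole annotation, 55.4% of protein-coding genes were named in both IPs. The comparisons in this paragraph were not weighted by span. DROSHA gave 21 sense sites in IP 1 and 20 in IP 2, DGCR8 18 and 10, XPO5 11 and 14, and DICER1 4 and 5. Of 26 host genes with other names, 24 were named in both IPs, and most of these are protein-coding genes, for which the share was the same 55.4%. At least 1 base was listed in both IPs in 5 of the 25 pathway genes and 8 of the 26 other hosts, against 14.9% of protein-coding genes. DNM2, a dynamin, had 54 and 46 sense sites. FTX, a long noncoding gene of the X inactivation region, had 62 and 93. All 10 markers of tubule and epithelium were named in both IPs, among them PAX8 with 23 and 21 sense sites. Of 8 markers of other cell types, 3 were named in both IPs, each with at most 9 sites in a list, and CD3E, ALB and UMOD in neither.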

How the data were processed

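RNA from 2 PARP1 IPs and 2 inputs of HK-2 cells was sequenced as paired-end libraries made by random-primed reverse transcription, per the labels' protocols. The tools bcl2fastq and TopHat2 and the build GRCh38 are credited to the submitters' processing notes. How sites were called and whether duplicates were removed is not given in the sources used here. Deposited were counts of tags and of mutated tags per site. The authors also gave an FDR (on the scale of a p-value) and a score that equals the mutated tags. Listed sites have at least 2 mutated tags.

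Sites were joined by gene identifier to GENCODE release 29, and hairpins, mature microRNAs and promoter windows came from RefSeq (GRCh38.p14). The authors' annotation release is not given here, and 1 MIR670HG site lies outside its GENCODE span. Shared means the same base and strand. Python 3.11.15, pandas 2.3.3, numpy 2.4.6, scipy 1.17.1 and matplotlib 3.10.9 were used. The matching step was tested on simulated data.

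The members, gene lists and tests were chosen with earlier results of these data known. Named genes were those with a shared base, the 15 with the most sense sites, the 5 densest with at least 3 sense sites in each IP, and a list of well-known hosts. MIR217HG and MIR670HG were named after their values were seen. The comparison with RefSeq starts, the weighting of hairpin windows by sites and the 2 alternatives named as added were also chosen after the data were seen. Other alternatives were a stricter mutated tag minimum, a lower FDR, sense sites, substitutions, other overlap rules, other hairpin windows, newer symbols and leaving out each IP.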

Additional observations from a re-analysis of the deposited data

How the results depend on the processing

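No paired analysis was possible because the inputs have no list here and no test was made. With at least 3 mutated tags, host genes held 0.212% of IP 1 sites and 0.271% of IP 2 sites, 7 genes were named in both IPs, 1 base was shared and 1 site in each IP lay within 1 kb of a hairpin. With an FDR below the most common value (0.00671 in IP 1, 0.00643 in IP 2), the shares were 0.205% and 0.280%, 14 genes were named in both and 2 sites of IP 1 lay near hairpins. The share of other genes named in both IPs is not given under these settings. The counts of 7 and 14 therefore do not show whether host genes lose more than other genes. With substitutions only, the IP 2 share was 0.172%, 4 bases were shared and 3 IP 2 sites lay near hairpins. Hairpin windows of 200 bases held 0 sites in IP 1 and 3 in IP 2, and windows of 5000 bases held 31 and 36. With newer symbols, the shares were 0.248% and 0.261%. Without MIR3681HG and MIR4435-2HG, an alternative added after the data were seen, they were 0.0854% and 0.113%. Either IP alone named 34 to 36 host genes. Sense sites only, sense-strand sites by GENCODE position (added), the same base on either strand and a 10-base tolerance left the values they bear on within 1.5 times. The cause of the other shifts was not tested. With most sites at 2 tags, single sites are weakly supported. Without an input list or a control IP, genes with sites cannot be called bound, and genes without sites cannot be called unbound. Whether listed bases, shared ones included, are also mutated in the inputs or in the genome of these cells was not tested.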

Other observations

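Later symbols add host genes that GENCODE release 29 lists under other names, taken here from the gene name table and chosen after their values were seen. The one with the most sites was the gene now called MIR924HG (AC016205.1, chromosome 18, 39206924 to 39800318, minus strand, 593 kb). Its sense sites numbered 104 in IP 1 and 100 in IP 2, or 1.75 and 1.69 per 10 kb, with 4 bases listed in both IPs. These are counts of the same order as in MIR3681HG (64 and 99) and MIR4435-2HG (66 and 77). MIRLET7IHG (AC048341.1, chromosome 12), named for let-7i, had 4 and 2 sense sites, with 1 base listed in both. MIR3667HG (C22orf34) had 7 and 4 sense sites and MIR3171HG (AL390334.1) had 4 and 4, without a shared base.

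Several host genes carry a GENCODE start far upstream of the RefSeq start. In the 11 genes where the RefSeq start lies at least 10 kb into the span, the upstream stretch is 22.4% of the bases. It held 14 of 199 sense-strand sites of any gene in IP 1 and 25 of 281 in IP 2. The host sites of 2 of these genes lay partly upstream of the RefSeq start, with 5 of 8 in IP 1 and 8 of 9 in IP 2 for MIR29B2CHG, and 3 of 4 and 2 of 13 for MIR646HG.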
